A study of Mus musculus with 28 samples.

Results

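Ms4a6b, Ms4a6c, Ms4a6d, Ms4a4a, Ms4a4b and Ms4a4c were examined in RNA-seq data of hippocampal microglia from mice that carry or lack an Alzheimer's disease transgene and that differ in their gut microbes. The 6 genes were chosen by symbol, among 48587 genes in the count table and 19 genes whose symbol begins with Ms4a. The mice were heterozygous male 5xFAD animals, which express mutant human APP and PS1 in neurons under the Thy-1 promoter, and their non-transgenic wild-type (WT) littermates, all on the C57BL/6J background and 16 weeks old. Either genotype was kept specific pathogen free (SPF, 5 WT and 3 5xFAD mice), germ free from birth (GF, 4 WT and 5 5xFAD mice) or SPF with an oral antibiotic mixture of vancomycin, cefoxitin, gentamicin and metronidazole for 8 weeks (ABX, 5 WT and 6 5xFAD mice). Each library came from the microglia of 1 mouse, sorted as viable CD11b+CD45low cells outside a dump gate for markers of lymphocytes, monocytes and neutrophils. The GF mice came from another facility than the SPF and ABX mice, so the lack of microbes and the source of the animals cannot be told apart.

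The Ms4a genes encode small proteins that cross the cell membrane several times, and they lie side by side in 1 cluster. Ms4a1, the best known of them, encodes the B cell antigen CD20. The human cluster is known as a locus of inherited Alzheimer's disease risk, and MS4A4A has been linked to the amount of soluble TREM2, the shed part of a microglial lipid receptor. The mouse carries several paralogs of the human MS4A6A and MS4A4A genes. MS4A4A protein is known from macrophages, where it associates with dectin-1, the product of Clec7a.

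On the mouse build GRCm38 the 6 genes lay within 229327 bases of chromosome 19, from base 11375523 to base 11604849. On the plus strand the order was Ms4a4a (11375523 to 11392790), Ms4a4c (11404770 to 11427246), Ms4a4b (11443553 to 11467055), Ms4a6c (11469366 to 11482192) and Ms4a6b (11516512 to 11531256). Ms4a6d followed on the minus strand (11586604 to 11604849). The coding sequences were 91.7% identical between Ms4a4b and Ms4a4c, 85.8% between Ms4a6b and Ms4a6c and 81.2% between Ms4a6b and Ms4a6d. Between an Ms4a6 and an Ms4a4 gene the identity was 56.6% to 58.7%.

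The sequence before the start sites was also shared within paralog pairs whose levels differed in these microglia. The RefSeq promoter set on GRCm38.p6 held 5 of the 6 genes, and the 250 bases before the RefSeq start of the closest pairs are shown here. The RefSeq start lay 2047 bases inside the gene span given above for Ms4a6b and 2891 bases inside it for Ms4a4c, in both cases at the start of another GENCODE transcript of the gene, and within 5 bases of the span's start for Ms4a6c and Ms4a4b. Capitals mark the longest run of bases that is identical in both genes of a pair, 48 bases in the first pair and 20 bases in the second.
Ms4a6b, chr19:11518309-11518558, plus strand: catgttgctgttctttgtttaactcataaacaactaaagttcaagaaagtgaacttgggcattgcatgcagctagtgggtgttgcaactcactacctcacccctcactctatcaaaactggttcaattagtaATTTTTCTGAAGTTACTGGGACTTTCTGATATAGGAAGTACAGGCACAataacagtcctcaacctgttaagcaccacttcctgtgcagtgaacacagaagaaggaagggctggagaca
Ms4a6c, chr19:11469118-11469367, plus strand: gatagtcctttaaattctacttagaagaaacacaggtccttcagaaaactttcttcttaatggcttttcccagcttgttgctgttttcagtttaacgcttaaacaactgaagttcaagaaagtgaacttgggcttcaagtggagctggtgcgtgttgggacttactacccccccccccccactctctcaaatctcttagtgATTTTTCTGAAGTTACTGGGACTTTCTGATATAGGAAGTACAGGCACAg
Ms4a4b, chr19:11443308-11443557, plus strand: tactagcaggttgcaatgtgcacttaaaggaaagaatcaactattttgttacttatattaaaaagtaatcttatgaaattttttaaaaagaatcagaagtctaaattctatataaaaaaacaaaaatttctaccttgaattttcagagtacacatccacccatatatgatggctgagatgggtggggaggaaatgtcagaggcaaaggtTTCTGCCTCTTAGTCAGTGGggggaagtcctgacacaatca
Ms4a4c, chr19:11407411-11407660, plus strand: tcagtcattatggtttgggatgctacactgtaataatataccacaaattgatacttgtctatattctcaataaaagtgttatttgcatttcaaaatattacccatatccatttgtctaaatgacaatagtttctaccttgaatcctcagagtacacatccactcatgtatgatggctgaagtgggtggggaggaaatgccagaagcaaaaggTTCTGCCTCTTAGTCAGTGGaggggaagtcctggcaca
Counting back from -1, the base just before the start, the shared run lay at -118 to -71 in Ms4a6b and at -49 to -2 in Ms4a6c. It lay at -41 to -22 in Ms4a4b and at -38 to -19 in Ms4a4c. The promoter windows, with the 50 bases after the start included, were 83.1% identical over 225 aligned bases in the Ms4a6 pair and 76.9% over 290 aligned bases in the Ms4a4 pair. The letters GAAANNGAA, searched on both strands and known as part of interferon-stimulated response elements, were found at -206 to -198 in Ms4a6b and at -133 to -125 in Ms4a6c, and in 8.56% of 32851 promoters. The letters GAGGAAGT, a motif of PU.1 that stands in 3.2% of the promoters, were in none of the 5 windows.

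The libraries held 14441610 to 29977395 reads counted on genes, with a median of 19499296.5. The 7 microglial marker genes P2ry12, Tmem119, Sall1, Cx3cr1, Csf1r, Siglech and Fcrls summed to 31550 to 46040 CPM, counts scaled to a fixed library size, in every mouse, so the sorted cells carried the markers of microglia. Neutrophil markers summed to 60.8 to 269 CPM in SPF 5xFAD mice to 140.8 in FAD_ABX_1151 and to at most 0.784 in the other 5 ABX 5xFAD mice, and to at most 1.47 in all others. Monocyte markers summed to 3.61 to 52.6 CPM, with the highest sums in SPF and ABX 5xFAD mice, and dendritic cell markers to 4.4 to 64.2, with the highest in ABX 5xFAD mice. Markers of T and NK cells stayed at or below 5.98 CPM. The 5 B cell genes Ighm, Ighd, Cd79b, Cd79a and Pax5 summed to 554 to 895 CPM in every mouse, with Ighm at 488 to 835, Cd79b at 22.4 to 51.8 and Ighd at 22.6 to 51.3, while Cd79a stayed at or below 0.559 CPM and Pax5 at or below 0.0538. The library FAD_GF_201 is 5xFAD by its title and genotype, but its description reads WT. It held 305 CPM of Clec7a, against 440.0 to 529 in the other 4 GF 5xFAD mice and 21.6 to 35.2 in GF WT mice. It was kept as GF 5xFAD, and results that rest on it are given with and without it. In the descriptions, the libraries are numbered in 3 styles, of which one holds all SPF and ABX WT mice, another the SPF 5xFAD mice with FAD_ABX_1151, and the last all GF mice with the other 5 ABX 5xFAD mice. Genotype within GF mice, and ABX against GF in 5xFAD mice without FAD_ABX_1151, were compared within 1 style, while in SPF and in ABX mice genotype and style cannot be told apart.

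Per base of annotated exon, Ms4a6d had the most reads of the 6 genes in microglia. Its mean over the 28 mice was 68.7 reads scaled by exon length and library size (RPKM), followed by Ms4a6b at 27.6, Ms4a6c at 10.6, Ms4a4c at 2.13, Ms4a4a at 1.11 and Ms4a4b at 0.00924. In SPF WT mice the level was 79.4 ± 9.46 RPKM (SD, n = 5) for Ms4a6d, 31.4 ± 2.24 for Ms4a6b and 9.39 ± 1.6 for Ms4a6c. Ms4a4c reached 0.956 ± 0.170 RPKM in the same mice. By CPM, which does not correct for length, Ms4a6b and Ms4a6d were close, with means of 123.7 and 119.3 over all mice, since the counted exons of Ms4a6b span 4485 bases and those of Ms4a6d 1735. These lengths cover all annotated transcripts, and which of them were expressed was not tested. The order of Ms4a6d and Ms4a6b per length rests on the lengths. The limit on the counts of Ms4a6c given below holds for its RPKM too. For each of the 6 genes, groups that were neighbours in the order of their mean CPM overlapped in their single values.

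**Figure D1:**
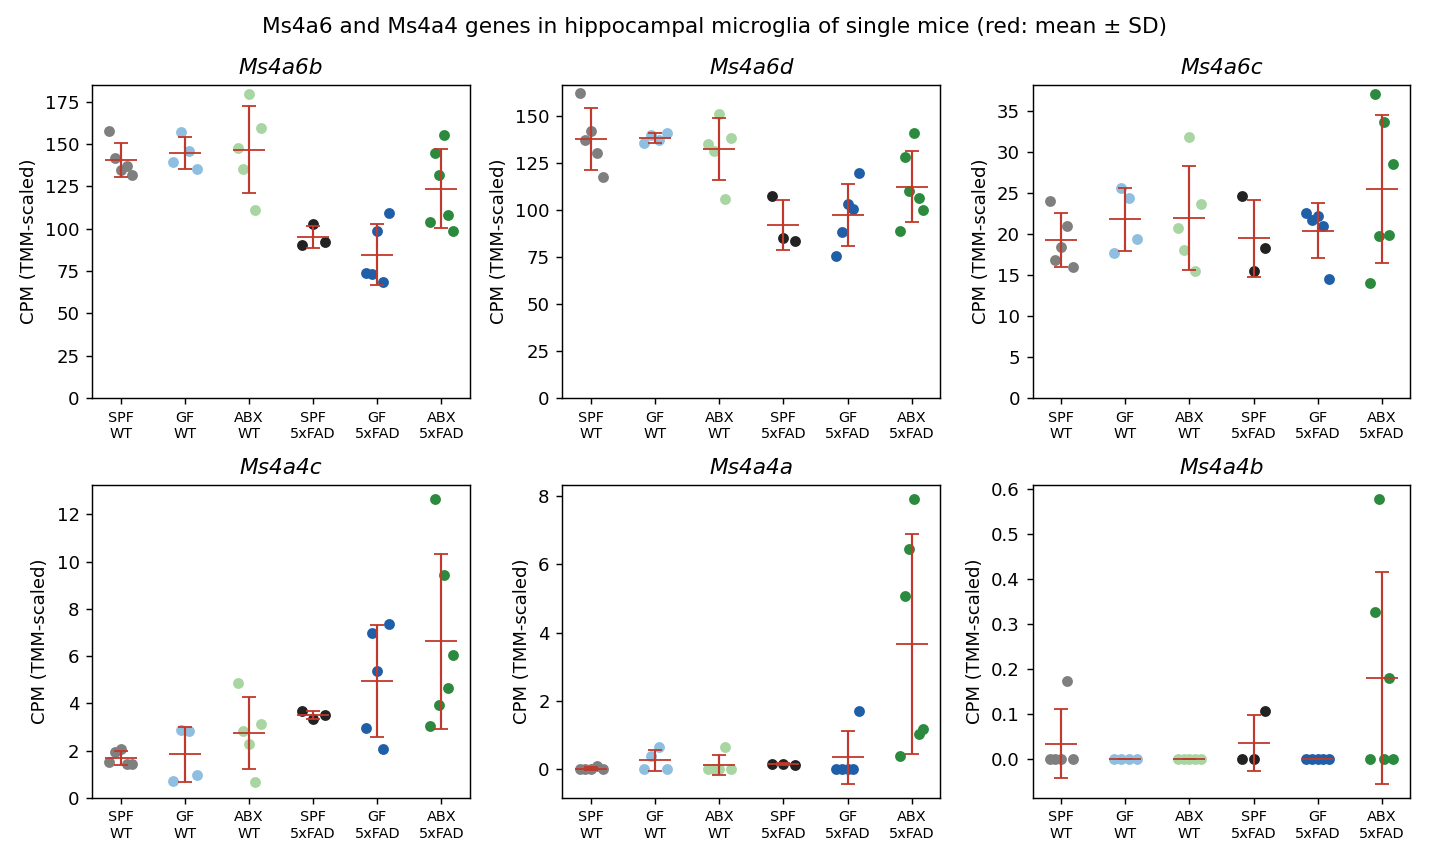
CPM of the 6 genes (TMM-scaled, linear axes that differ between panels) in single mice of the 6 groups, with the mean and SD in red. All SPF and GF 5xFAD mice lie below the WT mice of the same housing for Ms4a6b and Ms4a6d, Ms4a6c overlaps everywhere, and Ms4a4a is high in ABX 5xFAD mice, with 5.06 to 7.92 CPM in 3 of them.

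The first comparison asks how the genes differ between 5xFAD and WT microglia in each housing. Ms4a6b and Ms4a6d fell in 5xFAD microglia of SPF and GF mice, Ms4a4c rose in GF and ABX mice, Ms4a4a rose in ABX mice, and Ms4a6c passed the test in no housing. Of the 6 genes, 5 had enough reads to be tested and Ms4a4b did not. By edgeR's quasi-likelihood test with Benjamini-Hochberg adjustment over 15298 genes and a threshold of 0.05, 2 of the 5 tested genes were called in SPF mice, both lower, where 0.837% of all tested genes were called lower, 3.73% higher and 4.57% either way. In GF mice 3 were called, 2 lower and 1 higher, against 6.2% called lower, 9.43% called higher and 15.6% either way. In ABX mice 2 were called, both higher, against 9.45% called higher, 4.98% called lower and 14.4% either way. Averaged over the 3 housings 4 were called, 2 lower and 2 higher, against 10.8% called lower, 14.3% called higher and 25.1% either way. In bulk samples, fewer cells of a type and less RNA per cell cannot be told apart.

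**Figure D2:**
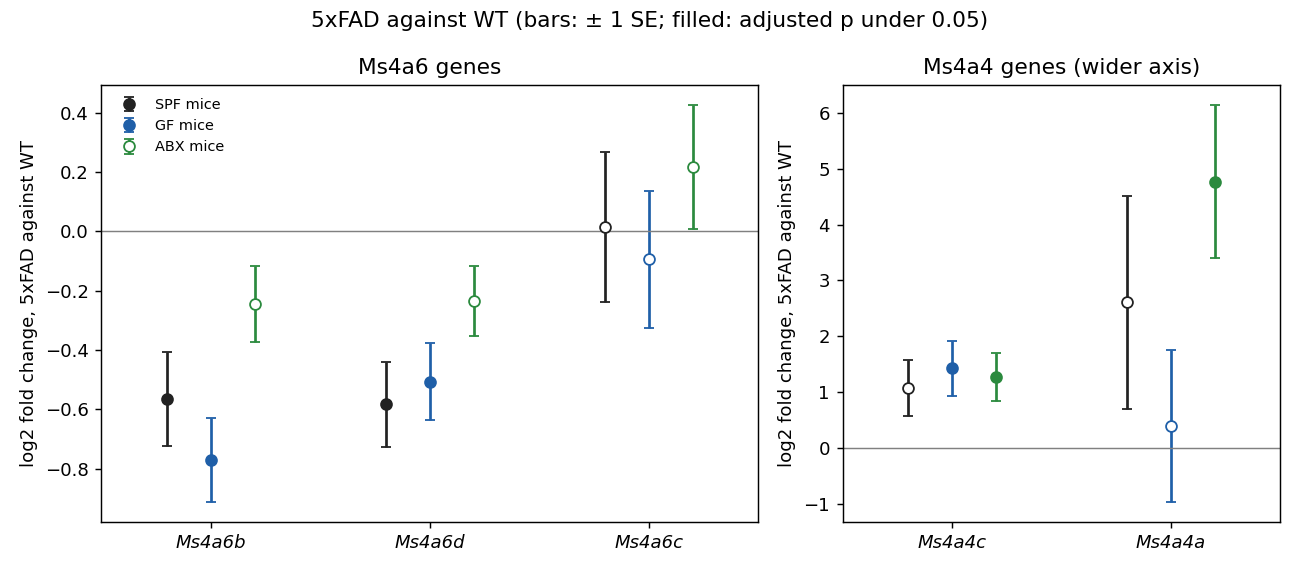
Log2 fold change of 5xFAD against WT with 1 SE from edgeR, in SPF, GF and ABX mice, for the 5 tested genes. Filled points passed an adjusted p of 0.05. Ms4a6b and Ms4a6d lie below 0 in each housing, Ms4a4c lies above 0 at 1.07 to 1.42, and Ms4a4a spans 0.40 to 4.77 on a wider axis.

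Ms4a6b encodes one of the microglial Ms4a6 proteins. In SPF mice its level was 157, 142, 135, 137 and 132 CPM in WT and 90.2, 103 and 92.2 CPM in 5xFAD. All 5xFAD mice were below all 5 WT mice. The level in 5xFAD was 0.676 of that in WT (log2 fold change -0.57, SE 0.157, adjusted p = 0.0313, exact permutation p = 0.0357, two-sided, the smallest that these group sizes allow). The call was lost when any of 6 mice was left out, WT_SPF_912 (0.0772), WT_SPF_925 (0.0557), WT_SPF_926 (0.0568), FAD_SPF_1144 (0.189), FAD_SPF_1146 (0.0720) and FAD_SPF_1148 (0.154), with log2 fold changes of -0.61 to -0.52. In GF mice Ms4a6b stood at 139.6, 157, 146 and 135 CPM in WT and at 73.7, 73.2, 98.8, 68.6 and 109 CPM in 5xFAD, again without overlap. The fold change was the largest of the 3 housings in size, 0.586 of WT (log2 fold change -0.77, SE 0.141, adjusted p = 0.000228, exact permutation p = 0.0159). Without FAD_GF_201, the highest of the GF 5xFAD mice, it was -0.87 (adjusted p = 5.2e-05). In ABX mice the WT values were 148, 135, 179, 111 and 159.6 CPM, and the 5xFAD values ran from 98.5 to 155 CPM with a median of 119.8. These groups overlapped, and the log2 fold change of -0.24 (SE 0.128, from -0.50 to 0.01 at 2 SE) did not pass the test (adjusted p = 0.215, exact permutation p = 0.152).

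Ms4a6d, its paralog at the far end of the cluster, followed Ms4a6b closely. In SPF mice it stood at 162, 137, 142, 130.2 and 117 CPM in WT and at 107, 85.2 and 83.3 CPM in 5xFAD. The ratio was 0.667 (log2 fold change -0.58, SE 0.144, adjusted p = 0.0124, exact permutation p = 0.0357), and the adjusted p rose to 0.100 without FAD_SPF_1146 and to 0.125 without FAD_SPF_1148. In GF mice the 4 WT values lay close together, at 135 to 141 CPM, and the 5xFAD values of 75.3, 88.2, 103, 100.5 and 119.4 CPM were all lower. The ratio there was 0.704 (log2 fold change -0.51, SE 0.130, adjusted p = 0.00645, exact permutation p = 0.0159), and without FAD_GF_201 the log2 fold change was -0.58 (adjusted p = 0.00232). In ABX mice WT microglia held 106 to 151 CPM and 5xFAD microglia 89.0 to 141 CPM, with overlap (log2 fold change -0.23, SE 0.117, adjusted p = 0.192, exact permutation p = 0.113). Averaged over the housings, Ms4a6b fell by 0.53 (SE 0.0825, adjusted p = 1.31e-05) and Ms4a6d fell by 0.44 (SE 0.0755, adjusted p = 4.5e-05) on the log2 scale, and both kept these calls under every one of 37 settings tried. Of the 7 microglial marker genes, 3 were also called lower in SPF, 4 in GF and 4 in ABX 5xFAD mice and none higher, against 0.837%, 6.2% and 4.98% of all tested genes called lower. The neutrophil markers of the SPF 5xFAD mice, at 60.8 to 269 CPM, moved with the SPF difference as well, and the part of either list in the levels of Ms4a6b and Ms4a6d was not tested.

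The 2 genes moved together from mouse to mouse. Over the 28 mice the log2 CPM of Ms4a6b and Ms4a6d correlated with r = 0.876, and with r = 0.759 after the group means were taken away, as a description of libraries that share depth and preparation. Of the 50-base words of their transcripts, 3.57% of those of Ms4a6b and 2.54% of those of Ms4a6d occur in any other gene. The ratio of the pair was stable in WT mice, where the mean log2 ratio of Ms4a6b to Ms4a6d CPM was 0.04 ± 0.0958 (SD, n = 5) in SPF, 0.06 ± 0.0947 (n = 4) in GF and 0.14 ± 0.0857 (n = 5) in ABX. In GF 5xFAD mice it was -0.21 ± 0.213 (n = 5), with each of the 5 mice below 0, and in ABX 5xFAD mice 0.13 ± 0.113 (n = 6). The widest spread was in SPF 5xFAD mice, at 0.06 ± 0.270 (n = 3), from -0.25 to 0.27.

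**Figure D3:**
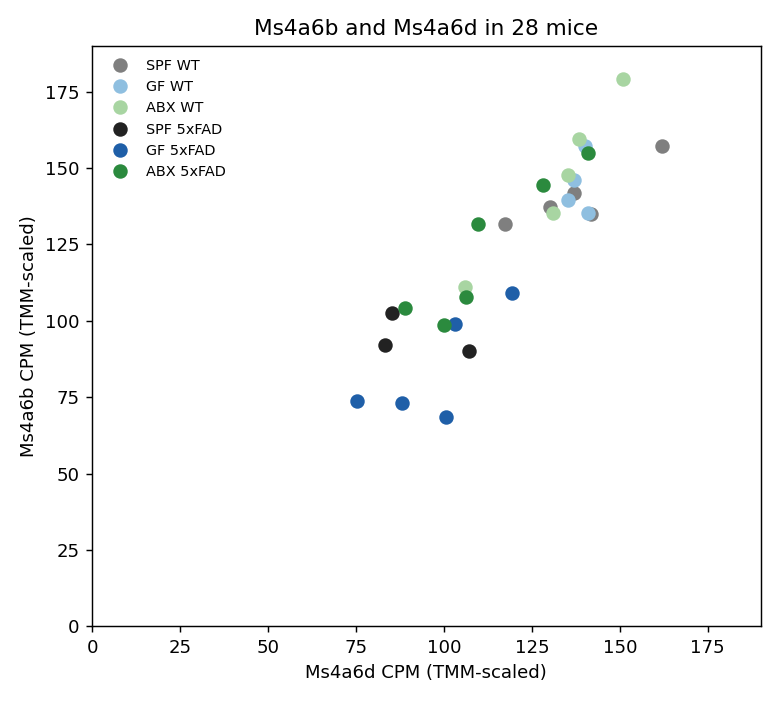
CPM of Ms4a6b against CPM of Ms4a6d (TMM-scaled) in the 28 mice, coloured by group. The mice lie along 1 diagonal, with SPF and GF 5xFAD mice at its lower end and ABX 5xFAD mice spread from there into the range of the WT mice.

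Ms4a6c, the nearest relative of Ms4a6b by sequence, passed the test for 5xFAD against WT in no housing, and its fold change was not tested against those of Ms4a6b and Ms4a6d. Its level was 24.0, 16.8, 18.4, 21.1 and 16.0 CPM in SPF WT and 24.6, 15.6 and 18.3 CPM in SPF 5xFAD mice. In GF mice it was 17.7, 25.6, 24.5 and 19.4 CPM in WT and 22.6, 21.7, 22.2, 21.02 and 14.5 CPM in 5xFAD. In ABX mice it ran from 15.5 to 31.9 CPM in WT and from 14.0 to 37.1 CPM in 5xFAD, the widest range of any group. The genotypes overlapped in every housing. The log2 fold change was 0.02 with SPF housing (from -0.49 to 0.52 at 2 SE, adjusted p = 0.990), -0.09 with GF (from -0.56 to 0.37, adjusted p = 0.844, and 0.01 without FAD_GF_201, from -0.47 to 0.50) and 0.22 with ABX (from -0.20 to 0.64, adjusted p = 0.553). The counts of Ms4a6c carry a limit, since 1088 bases of its exons overlap BE692007 on the other strand, 49.6% of its 50-base words occur there, and the library kit does not keep strand. BE692007, named for this overlap, held 0.862 to 11.1 CPM and was called in none of the genotype comparisons (adjusted p from 0.552 to 0.952). By edgeR it was called higher in ABX than in GF WT mice (log2 fold change 1.28, adjusted p = 0.0437). In ABX against GF 5xFAD mice its change of 0.99 was not called (adjusted p = 0.0650).

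Ms4a4c, a myeloid Ms4a4 gene known to respond to interferon, was low but rose in 5xFAD microglia. In SPF mice it was at 1.51, 1.92, 2.07, 1.42 and 1.45 CPM in WT and at 3.69, 3.35 and 3.50 CPM in 5xFAD, so that all 5xFAD mice were above all 5 WT mice. The fold was 2.10 (log2 fold change 1.07, SE 0.506), which did not pass the adjusted test in the model of all 6 groups (adjusted p = 0.325, exact permutation p = 0.0357) but did with only the SPF groups in the fit (adjusted p = 0.0273). In GF mice the values were 0.716, 2.85, 2.84 and 0.966 CPM in WT and 2.94, 6.99, 5.35, 2.07 and 7.37 CPM in 5xFAD, with 4 of 5 5xFAD mice above every WT mouse. The log2 fold change was 1.42 (SE 0.488, adjusted p = 0.0453, exact permutation p = 0.0635). In ABX mice WT microglia held 4.87, 2.84, 2.26, 0.651 and 3.13 CPM, and 5xFAD microglia 3.05 to 12.7 CPM with a median of 5.35, which gave 1.27 on the log2 scale (SE 0.431, adjusted p = 0.0453, exact permutation p = 0.0346). Averaged over the housings Ms4a4c rose 2.39-fold (log2 fold change 1.25, SE 0.274, adjusted p = 0.000887), a call that held in 37 of 37 settings.

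The single calls in GF and ABX mice were near the threshold. In GF mice 17 of 37 settings kept the call, with adjusted p from 0.0205 to 0.160, the highest without WT_GF_199. The other GF mice whose loss ended it were WT_GF_231 (0.141), FAD_GF_182 (0.0997), FAD_GF_184 (0.0684) and FAD_GF_201 (0.0905). In ABX mice 19 of 37 settings kept it, with adjusted p from 0.0214 to 0.138, the highest without FAD_ABX_1452. The other ABX mice whose loss ended it were WT_ABX_910 (0.0797), WT_ABX_911 (0.107), WT_ABX_923 (0.106), WT_ABX_932 (0.0633), FAD_ABX_1455 (0.0883) and FAD_ABX_1482 (0.0549). The loss of 1 mouse outside the groups compared ended the GF call 11 times, with adjusted p of at most 0.0554, and the ABX call 8 times, with 0.0504 to 0.0536. Of the 50-base words of Ms4a4c, 8.19% also occur in Ms4a4b.

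Interferon-stimulated genes were higher in the same comparisons. Of 20 such genes, among them Ifit1, Isg15, Irf7 and Oasl2, 11 were called higher in SPF, 12 in GF and 14 in ABX 5xFAD mice and none lower, with median log2 fold changes of 1.72, 1.44 and 1.91, against medians of -0.03, -0.03 and -0.01 over all tested genes and 3.73%, 9.43% and 9.45% of them called higher. Their summed level ran from 139.9 to 573 CPM in WT and from 414 to 1306 CPM in 5xFAD mice. Markers of other myeloid cells moved in the same comparisons. In SPF 5xFAD mice 1 of 5 tested monocyte and 5 of 6 tested neutrophil markers were called higher, none lower, and no dendritic cell marker was called. Monocyte sums were 6.56 to 8.33 CPM in SPF WT and 16.9 to 42.0 in SPF 5xFAD mice, and neutrophil sums at most 0.326 and 60.8 to 269. In ABX 5xFAD mice 2 of 5 tested monocyte markers were called higher and 1 lower, and 3 of 6 dendritic cell markers higher. Of the neutrophil markers 5 were called higher there, with FAD_ABX_1151 the 1 mouse above 0.784 CPM. In GF 5xFAD mice 2 of the 6 dendritic cell markers were called higher and no monocyte marker was called, and the dendritic cell sums were 8.44 to 14.8 CPM in GF WT and 16.9 to 25.8 in GF 5xFAD mice, without overlap. The monocyte markers summed to 3.61 to 8.77 CPM in ABX WT and 14.4 to 52.6 in ABX 5xFAD mice, and the dendritic cell markers to 8.20 to 10.7 and 10.6 to 64.2. The 2 mice with the most Ms4a4c, FAD_ABX_1452 and FAD_ABX_1455, at 12.7 and 9.45 CPM, also had the highest sums of both lists, 45.2 and 52.6 CPM for monocyte and 64.2 and 39.5 CPM for dendritic cell markers. Border-associated macrophage markers, described with Ms4a4a, were higher in SPF and ABX 5xFAD mice as well. Whether any of these lists has a part in the level of Ms4a4c was not tested.

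Ms4a4a, the mouse gene closest in name to the human risk gene, was all but absent in WT microglia and reached its highest level in ABX 5xFAD mice. The 5 SPF WT mice held 2 reads in all, both in WT_SPF_928, and the 3 SPF 5xFAD mice 3, 3 and 2 reads. Scaled by library size, the ratio of these reads was 7.89, with an exact 95% interval of 1.57 to 76.3 that covers counting error only. The difference was not called (adjusted p = 0.647, exact permutation p = 0.0357). In GF mice 2 of 4 WT mice held 0.372 and 0.644 CPM and 4 of 5 5xFAD mice held no read, while FAD_GF_201 held 1.71 CPM from 33 reads. No difference was called in GF mice (log2 fold change 0.40, SE 1.37, adjusted p = 0.895), and without FAD_GF_201 it was -5.38 (adjusted p = 0.0555), a fitted value against a group with no read. In ABX mice 4 of 5 WT mice held no read and WT_ABX_923 held 12 reads, or 0.651 CPM. The 6 ABX 5xFAD mice held 0.395, 5.06, 6.46, 7.92, 1.03 and 1.17 CPM, and 5 of them lay above every ABX WT mouse. The lowest was FAD_ABX_1151, the 1 ABX 5xFAD library in the numbering style of the SPF 5xFAD mice. The log2 fold change was 4.77 (SE 1.38, adjusted p = 0.0178, exact permutation p = 0.00866), and the adjusted p was 0.0524 without WT_ABX_911 and 0.0601 by DESeq2. Without WT_ABX_923, which held all the reads of ABX WT mice, the log2 fold change was 9.23 (adjusted p = 0.00339), a fitted value against a group with no read. The average over the housings was 2.59 (SE 0.908, adjusted p = 0.0352), 0.67 (adjusted p = 0.878) without FAD_GF_201, and 2.73 by DESeq2 (adjusted p = 0.0909). The loss of 9 other single mice, namely WT_SPF_912, WT_SPF_925, WT_SPF_926, WT_SPF_936, WT_GF_199, WT_GF_231, FAD_SPF_1144, FAD_SPF_1146 and FAD_ABX_1455, also ended that call, with adjusted p of 0.0503 to 0.0668.

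Markers of border-associated macrophages, the macrophages of the meninges and perivascular spaces, were highest in the mice with the most Ms4a4a. These macrophages carry CD11b like microglia but as a rule more CD45, so the CD45low gate of the sort would tend to leave them out. The 8 genes Mrc1, Cd163, Lyve1, Pf4, F13a1, Cbr2, Cd209f and Clec10a summed to 3.38 to 7.65 CPM in SPF WT mice, where Cd163, Lyve1, Cd209f and Clec10a were at 0, and to 3.57 to 5.83 CPM in ABX WT mice, where Cd163, Lyve1 and Cd209f were at 0. The sum was 10.8 to 42.3 CPM in GF WT, 16.1 to 29.6 in SPF 5xFAD, 10.8 to 83.5 in GF 5xFAD and 34.6 to 263 in ABX 5xFAD mice, with FAD_ABX_1151 the lowest of these. The 3 mice with the most Ms4a4a, FAD_ABX_1452, FAD_ABX_1453 and FAD_ABX_1455, also had the highest sums, 263, 190.4 and 239.7 CPM, and FAD_GF_201, at 83.5 CPM, had the highest of the GF 5xFAD mice. Other mice did not follow this order, since FAD_GF_181 had a sum of 47.4 CPM and no read of Ms4a4a, and WT_ABX_923 had 0.651 CPM of Ms4a4a at a sum of 5.59. Of the 8 markers, edgeR called 6 higher in SPF, 0 in GF and 8 in ABX 5xFAD mice and none lower, with median log2 fold changes of 5.83, 0.50 and 8.13, against 3.73%, 9.43% and 9.45% of all tested genes called higher. In GF mice the C-type lectin gene Clec10a alone had an unadjusted p under 0.05. The part of these cells in the level of Ms4a4a was not tested.

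Ms4a7, the next gene beside Ms4a4a and on the other strand, is known as a marker of border-associated macrophages. Like Ms4a4a, it had its highest mean CPM in ABX 5xFAD mice, 10.2 against 3.67. GF 5xFAD mice came next for both genes, but for Ms4a4a only through FAD_GF_201, without which their mean was 0. SPF WT and ABX WT mice held 1 read in 5 mice each. In SPF 5xFAD mice it stood at 0.815, 0.935 and 1.56 CPM, 124 times the reads of SPF WT mice after scaling by library size, with an exact 95% interval of 21.5 to 4986 (adjusted p = 0.00178). In ABX 5xFAD mice it stood at 1.13, 11.6, 12.8, 20.7, 5.37 and 9.51 CPM, a ratio of 1071 with an interval of 192 to 42320 (adjusted p = 8.05e-07). The value of 1.13 was that of FAD_ABX_1151, in the numbering style of the SPF 5xFAD mice. In GF mice it was at 1.25, 1.92, 2.52 and 0 CPM in WT and at 11.8, 0.635, 2.62, 1.76 and 4.15 CPM in 5xFAD (log2 fold change 1.54, SE 0.737, adjusted p = 0.168).

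**Figure D4:**
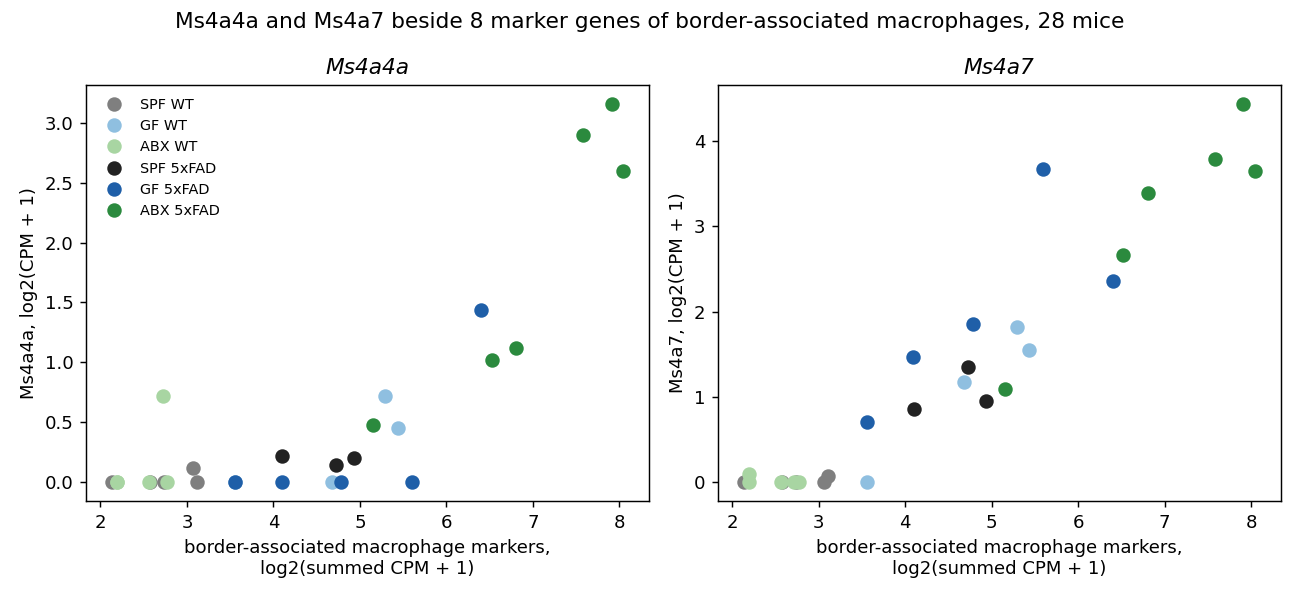
Ms4a4a and Ms4a7 against the summed level of 8 markers of border-associated macrophages in the 28 mice, all as log2(CPM + 1), coloured by group. The 3 ABX 5xFAD mice at 190.4 to 263 summed marker CPM have the highest Ms4a4a, and SPF and ABX WT mice sit at the lower left for Ms4a7.

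Ms4a4b, known from T cells and nearly identical to Ms4a4c in its coding sequence, was at the edge of detection. It had 27 reads in 5 of 28 mice, 4 in WT_SPF_928, 2 in FAD_SPF_1148 and 8, 10 and 3 in 3 ABX 5xFAD mice, with at most 0.577 CPM, and it was not tested. Of the 13 other Ms4a genes, 2 were tested, Ms4a7 and Ms4a14, and 11 were not. Of those, 5 had no read in any mouse and none had more than 9 reads in 1 mouse, the B cell gene Ms4a1 included, with 3 reads in 1 mouse. Ms4a14 had reads in 5 mice, with 4.59 CPM at most, in FAD_GF_181, and was called in no genotype comparison.

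The second comparison asks whether the genes differed between housings within a genotype. Of these comparisons, only ABX against SPF in WT mice lay wholly within 1 numbering style of the libraries. In WT mice none of the 5 tested genes was called by edgeR in GF against SPF mice, where 1.62% of all tested genes were called, in ABX against SPF mice (0%) or in ABX against GF mice (6.88%). None had an unadjusted p under 0.05 in these 3 comparisons, and DESeq2 and limma called none either. Of all tested genes DESeq2 called 4.71%, 0.0131% and 10.6% in them, and limma 10.7%, 0% and 13.2%. For Ms4a6b the log2 fold change was 0.04 in GF against SPF WT mice (from -0.24 to 0.32 at 2 SE) and 0.06 in ABX against SPF WT mice (from -0.21 to 0.33). For Ms4a6d the same values were 0.01 (from -0.25 to 0.27) and -0.06 (from -0.30 to 0.19).

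In 5xFAD mice Ms4a6b was higher in ABX than in GF microglia, with ABX values of 98.5 to 155 CPM against 68.6 to 109 CPM. The log2 fold change was 0.55 (SE 0.129, adjusted p = 0.00779), the single call among the 5 genes where 10.6% of all tested genes were called and 4.52% called higher. It was 0.66 (adjusted p = 0.00178) without FAD_GF_201 and 0.67 (adjusted p = 0.00211) in 26 mice without FAD_ABX_1151 and FAD_ABX_1482, and with only these groups in the fit the adjusted p was 0.0692. For Ms4a4a the change was 3.44 on the log2 scale (SE 1.25, adjusted p = 0.0740), which passed the threshold without FAD_ABX_1482 (3.62, adjusted p = 0.0487), in the 26 mice (3.91, adjusted p = 0.0492) and by limma (5.87, adjusted p = 0.0119). It also passed without FAD_GF_201 (9.23, adjusted p = 0.00179), a fitted value against a group with no read. Cell type markers moved in ABX against GF 5xFAD mice too. Of the 7 microglial markers, P2ry12 (log2 fold change 0.43), Sall1 (0.31) and Cx3cr1 (0.30) were called higher and Fcrls (-0.66) lower. Of the 8 border-associated macrophage markers, Mrc1 (2.16) and Cd209f (3.08) were called higher, and of 6 tested neutrophil markers 4 were called higher and 1 lower, with FAD_ABX_1151 the 1 mouse of these groups above 1.47 summed CPM. Their part in the levels of Ms4a6b and Ms4a4a was not tested. No member was called in GF against SPF 5xFAD mice, where 12.8% of all tested genes were called and none of the 5 had an unadjusted p under 0.05, nor by DESeq2 or limma. Of all tested genes DESeq2 called 16.5% in that comparison and limma 25.3%. In ABX against SPF 5xFAD mice edgeR also called none, as for all genes (0%), although Ms4a4a, Ms4a6b and Ms4a6d had an unadjusted p under 0.05. DESeq2 called none of the 5 there and 0.0523% of all tested genes. Limma called Ms4a4a alone (adjusted p = 0.0276) and 0.876% of all tested genes. Apart from FAD_ABX_1151, that comparison also sets 1 numbering style against another. The log2 fold changes in that comparison were 0.38 (from 0.08 to 0.68 at 2 SE) for Ms4a6b and 0.29 (from 0.01 to 0.57) for Ms4a6d.

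Whether the genotype difference itself depended on housing was tested as an interaction. None of the 5 genes was called by edgeR for GF against SPF (0% of all tested genes), ABX against SPF (0%) or ABX against GF mice (1.76%), and DESeq2 and limma called none. In the last of these Ms4a6b and Ms4a4a had an unadjusted p under 0.05. The difference of log2 fold changes between ABX and GF mice was 0.53 for Ms4a6b (SE 0.191, adjusted p = 0.153) and 0.27 for Ms4a6d (SE 0.175, adjusted p = 0.469). For Ms4a4a it was 4.38 (SE 1.89, adjusted p = 0.239), and 10.16 (adjusted p = 0.0141) without FAD_GF_201, a fitted value against a group with no read.

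Of 8 receptor and signalling genes around TREM2 and dectin-1, to which MS4A4A has been linked, 3 rose in 5xFAD microglia of each housing, and the median log2 fold changes of the 8 were 0.10 with SPF, 0.05 with GF and 0.11 with ABX. Over all tested genes 3.73%, 9.43% and 9.45% were called higher, and the medians were -0.03, -0.03 and -0.01. Of Trem2, Tyrobp, Clec7a, Card9, Syk, Plcg2, Adam10 and Adam17, those called higher were the lipid receptor Trem2 (log2 fold change 0.59 with SPF, 0.86 with GF and 0.59 with ABX), its adaptor Tyrobp (1.13, 1.83 and 0.95) and the dectin-1 gene Clec7a (3.76, 4.11 and 3.38). Syk, the kinase downstream of both, was called lower in GF mice (-0.41, adjusted p = 0.0253). Plcg2, Card9 and the sheddases Adam10 and Adam17 were not called in any housing.

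The genes most like each member were sought among all tested genes by Pearson correlation of log2 CPM over the 28 mice, again as a description. Ms4a6b was most like Ggta1 (r = 0.896), Sla (0.894) and Ecscr (0.888), with r of 0.677 to 0.814 within groups. Ms4a6d was most like Ms4a6b, followed by Hfe (0.857) and Fam105a (0.846). Ms4a6c was most like S100a4 (0.777), Epsti1 (0.712) and Cnbp (0.654), and S100a4 had a mean of 0.448 CPM. Ms4a4c was most like Plbd1, Wfdc17 and Slfn2 (0.751 to 0.755), with r of 0.468 to 0.652 within groups. Ms4a4a was most like Timd4 (0.893), Chp2 (0.862) and Cd209f (0.861), and Cd209f is also in the list of border-associated macrophage markers. Among the tested members, Ms4a4a and Ms4a4c had r = 0.533 with each other over the 28 mice and 0.268 within groups, while Ms4a6b and Ms4a4c had -0.17 over the 28 mice and 0.598 within groups.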

How the data were processed

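The deposited table held raw counts of 50-base single reads per gene for 28 mice. Per the labels and the methods, the authors made cDNA with the SMARTer v4 kit and libraries with Nextera XT, which keep no strand, aligned reads with STAR 2.7.2 to the mouse genome and counted them with featureCounts 1.6.2 on GENCODE M21. The submitters' notes name a human build, but the methods and the chromosomes in the table are mouse GRCm38.

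The 6 genes and all gene lists were chosen with earlier results of these data known. Groups came from the labels, and replicates were single mice. Genes were kept by filterByExpr of edgeR 4.0.16 (at least 10 reads in enough libraries and 15 in all), scaled by TMM and tested with the quasi-likelihood F test in 1 model of 6 groups, with Benjamini-Hochberg adjustment over 15298 genes. The SE was taken from the fold change and its F value. CPM and RPKM used TMM-scaled library sizes and the length column of the table. Exact permutation tests used log2 CPM with a prior count of 2. Alternatives were other scalings and filters, DESeq2 1.42.0, limma 3.58.1 with voomWithQualityWeights (the tool of the study), only the groups compared, 26 mice, and each mouse left out. The text names all 6 genes, genes of the fixed lists and the 3 genes most like each member. A few genes of the fixed lists are not reported here. Precision follows from read counts, and intervals on reads cover counting error only. Sequence identity and shared 50-base words were computed from GENCODE M21 transcripts.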

Additional observations from a re-analysis of the deposited data

Results flagged for a closer look

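For the 6 genes, Ms4a7 and Ms4a14, 35 groups of 4 to 6 mice had reads, and 10 of them held 1 mouse far from the rest of its group. Chance sets 1 mouse apart in about 1 of 20 groups of normally spread values, but in 8 of the 10 the mouse was the only one with reads, where any read sets it apart and that rate does not apply. FAD_GF_201 was the low mouse for Ms4a6c among GF 5xFAD mice, at 14.5 CPM from 280 reads, with the next at 21.02 CPM. The same mouse was high for Ms4a4a at 1.71 CPM, where the other 4 GF 5xFAD mice held no read. For Ms4a4a, WT_ABX_923 stood at 0.651 CPM from 12 reads and WT_SPF_928 at 0.0862 CPM from 2 reads, in groups otherwise at 0. WT_SPF_928 was also the 1 SPF WT mouse with reads of Ms4a4b, at 0.172 CPM from 4 reads. Ms4a7 had 1 read each in WT_SPF_926 (0.0559 CPM) and WT_ABX_910 (0.0661 CPM), with the other mice of those groups at 0. Ms4a14 was at 0.912 CPM from 17 reads in WT_GF_230 and at 4.59 CPM from 86 reads in FAD_GF_181, each the only mouse of its group with reads, and at 2.31 CPM from 40 reads in FAD_ABX_1453, with the next ABX 5xFAD mouse at 0.717 CPM.

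The fitted genotype difference of Ms4a7 was larger in ABX than in GF mice, but the ABX WT mice were of another numbering style than the GF mice. The interaction on the log2 scale was 7.72 (SE 1.40, adjusted p = 0.00685 by edgeR), a fitted value that depends on the near absence of reads in ABX WT mice. The border-associated macrophage markers moved in the same way, with 7 of 8 called higher in that interaction, where 0.915% of all tested genes were called higher. Their part in the Ms4a7 difference was not tested. In the style of the ABX and SPF WT mice, Ms4a7 reached at most 0.0661 CPM and the marker sum at most 7.65 CPM. In GF WT mice, of the other style, the highest values were 2.52 and 42.3 CPM. Housing and style cannot be told apart in this interaction.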

How the results depend on the processing

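No called value changed direction. No paired analysis was possible because no mouse number occurs in more than 1 group. In ABX mice, 2 members were called for 5xFAD against WT, and 1 with library size alone, with no low-count filter, with at least 10 reads in every library, with DESeq2 or with only the groups compared. Of all tested genes these settings called 16.2%, 6.39%, 18.2%, 16.7% and 10%, against 14.4% in the main fit. In GF mice the count was 3, and 2 with library size alone, with no low-count filter, by limma or with only the groups compared, where Ms4a4c lost its call (adjusted p = 0.0574, 0.0611, 0.0702 and 0.0968). The shares of all tested genes called there were 19.8%, 7.13%, 16% and 15.3%, against 15.6% in the main fit. In SPF mice the count was 2, where 4.57% of all tested genes were called, and 3 with only the groups compared (9.71%). For the average it was 4 (25.1% of all tested genes), and 3 by DESeq2 (27.1%) or with at least 10 reads in every library (30.6%). For ABX against SPF in 5xFAD mice the count was 0 (0% of all tested genes), and 1 by limma (0.876%). For ABX against GF in 5xFAD mice it was 1 (10.6%), and 2 by limma (9.88%), 0 with only the groups compared (1.89%) and 2 in the 26 mice (10.5%). With 1 mouse left out at a time, the counts for 5xFAD against WT ran from 0 to 2 in SPF, from 2 to 3 in GF and from 0 to 2 in ABX mice, and from 3 to 4 for the average. The SPF count was 0 without FAD_SPF_1146 or FAD_SPF_1148, and the ABX count was 0 without WT_ABX_911. In the same way ABX against GF in 5xFAD mice ran from 1 to 2, and the interaction of ABX and GF from 0 to 1, with 1 without FAD_GF_201. The share of all tested genes called was not counted with 1 mouse left out. The cause of these shifts in the counts was not tested. With SPF 5xFAD at 3 mice and Ms4a4a at few reads, the lack of a call for Ms4a4a in SPF mice does not show equal levels. Ms4a4b, with few reads as well, was not tested.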
